A study of Mus musculus with 8 samples.

Results

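The genes described here handle arginine in the uterus: they make it, carry it into cells, split it to ornithine, turn it into nitric oxide, or build and break down the polyamines that come from ornithine. They are 10 genes of 52308 in the deposited count table, namely Ass1, Asl, Arg1, Arg2, Nos2, Nos3, Odc1, Azin1, Sat1 and Slc7a2. All 10 were found in the table, and all 10 had enough counts to be among the 18114 genes tested. They were chosen by name, after their measured levels over the stages of these same libraries had been seen. Their own differences between stages are therefore given as a description, with no p-value.

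Polyadenylated RNA of the uterus was sequenced from female ICR mice, an outbred laboratory stock, 6 to 8 weeks old. The 4 groups are proestrus, estrus, metestrus and diestrus, the stages of the estrous cycle as read from vaginal smears, with 2 libraries each. The labels name no allele, transgene or agent, so the stage is the only labelled difference between groups. Whether the libraries of a stage are separate animals is not stated. If they are not, the p-values reflect technical spread alone. The uterus was taken whole, so each level is a mixture over cell types, and a smaller number of cells of a type cannot be told apart from less RNA per cell.

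Arginine can be rebuilt from citrulline by argininosuccinate synthase (Ass1) and argininosuccinate lyase (Asl). Arginases (Arg1 in the cytosol, Arg2 in mitochondria) and nitric oxide synthases (Nos2, the inducible form, and Nos3, the endothelial form) compete for it. Ornithine made by arginase feeds ornithine decarboxylase (Odc1), the first step of polyamine synthesis, which antizymes hold down and the antizyme inhibitor Azin1 protects. Spermidine/spermine acetyltransferase (Sat1) marks polyamines for oxidation or export. In the uterus, polyamines are known for their role in growth and decidualisation, and nitric oxide for relaxing vessels and muscle.

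The deposited counts summed to between 17863546 and 21896786 per library. Stroma and muscle markers of a uterus were present in all 8 libraries: the 6 stromal markers summed to 8291 to 23860 CPM (read counts scaled to a common library size with TMM factors) and the 6 smooth muscle markers to 6324 to 16510 CPM. Transcripts of hepatocytes, a cell type the label does not name, were present as well. The 6 hepatocyte markers (Alb, Apoa1, Apoc3, Ttr, Serpina1a and Fgb) summed to 798 and 608 CPM in the estrus libraries and 106 CPM in proestrus library 1. The other 5 libraries held 0.179 to 3.53 CPM, with Apoa1 and Apoc3 at 0 in all 5 of them. Since Arg1, Ass1 and Asl are also abundant in liver, the proestrus-diestrus differences of Ass1, Asl, Arg1, Arg2, Nos3 and Sat1 are given with and without these 3 libraries. Both estrus libraries carry the liver transcripts, so no comparison with estrus could be made without them. The libraries of a stage also differed from each other: 2713 tested genes lay over 2-fold apart in diestrus, against 837 in metestrus.

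The promoters of Ass1, Odc1 and Sat1 were the 3 found among the 10 genes in the RefSeq table used (GRCm38.p6, 250 bases before to 50 bases after the start). They are shown because Ass1 and Sat1 shared a pattern, with high levels in proestrus and estrus that were lost by metestrus, which Odc1 did not follow. Each is written 5′ to 3′ on the strand of its gene, with capitals marking matches to the motifs named after it. The positions are chr2:31470020-31470319 on the plus strand for Ass1, chr12:17544623-17544922 on the plus strand for Odc1, and chrX:155216400-155216699 on the minus strand for Sat1.
Ass1: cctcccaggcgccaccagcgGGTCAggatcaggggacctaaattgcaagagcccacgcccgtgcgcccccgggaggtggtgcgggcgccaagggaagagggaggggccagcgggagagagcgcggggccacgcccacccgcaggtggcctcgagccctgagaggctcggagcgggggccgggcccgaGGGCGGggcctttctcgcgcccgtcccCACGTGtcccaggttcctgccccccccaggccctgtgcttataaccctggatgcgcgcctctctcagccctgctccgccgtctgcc
Odc1: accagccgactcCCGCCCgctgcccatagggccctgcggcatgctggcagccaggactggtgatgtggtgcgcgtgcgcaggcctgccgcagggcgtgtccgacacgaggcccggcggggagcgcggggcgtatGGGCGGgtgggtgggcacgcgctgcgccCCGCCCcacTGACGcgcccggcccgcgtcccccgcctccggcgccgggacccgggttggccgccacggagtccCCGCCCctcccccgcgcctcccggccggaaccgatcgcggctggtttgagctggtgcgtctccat
Sat1: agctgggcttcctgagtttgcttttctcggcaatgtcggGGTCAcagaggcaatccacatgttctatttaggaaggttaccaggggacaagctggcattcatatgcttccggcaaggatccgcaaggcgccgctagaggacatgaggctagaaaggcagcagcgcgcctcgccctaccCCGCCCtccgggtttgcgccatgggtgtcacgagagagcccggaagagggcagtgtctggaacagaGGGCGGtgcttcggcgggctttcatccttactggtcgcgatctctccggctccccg
The estrogen response element half-site, GGTCA on either strand, was found in Ass1 and Sat1 and not in Odc1. Of all 32851 promoters of this length, 40.5% hold it. The full element GGTCANNNTGACC, held by 0.07% of promoters, was in none of the 3. A GC box (GGGCGG, 35.7% of promoters) was in all 3. Only Ass1 of the 3 had the E-box CACGTG (7.15% of promoters), and only Odc1 the CRE half-site TGACG (20.8%). No TATAAA (13.6%), CCAAT (37.4%) or full CRE TGACGTCA (1.79%) was found in these windows. The GC content was 74% for Ass1, 78% for Odc1 and 60.3% for Sat1, against a median of 52.7% over all promoters. These matches describe letters in a window and not bound sites.

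**Figure D1:**
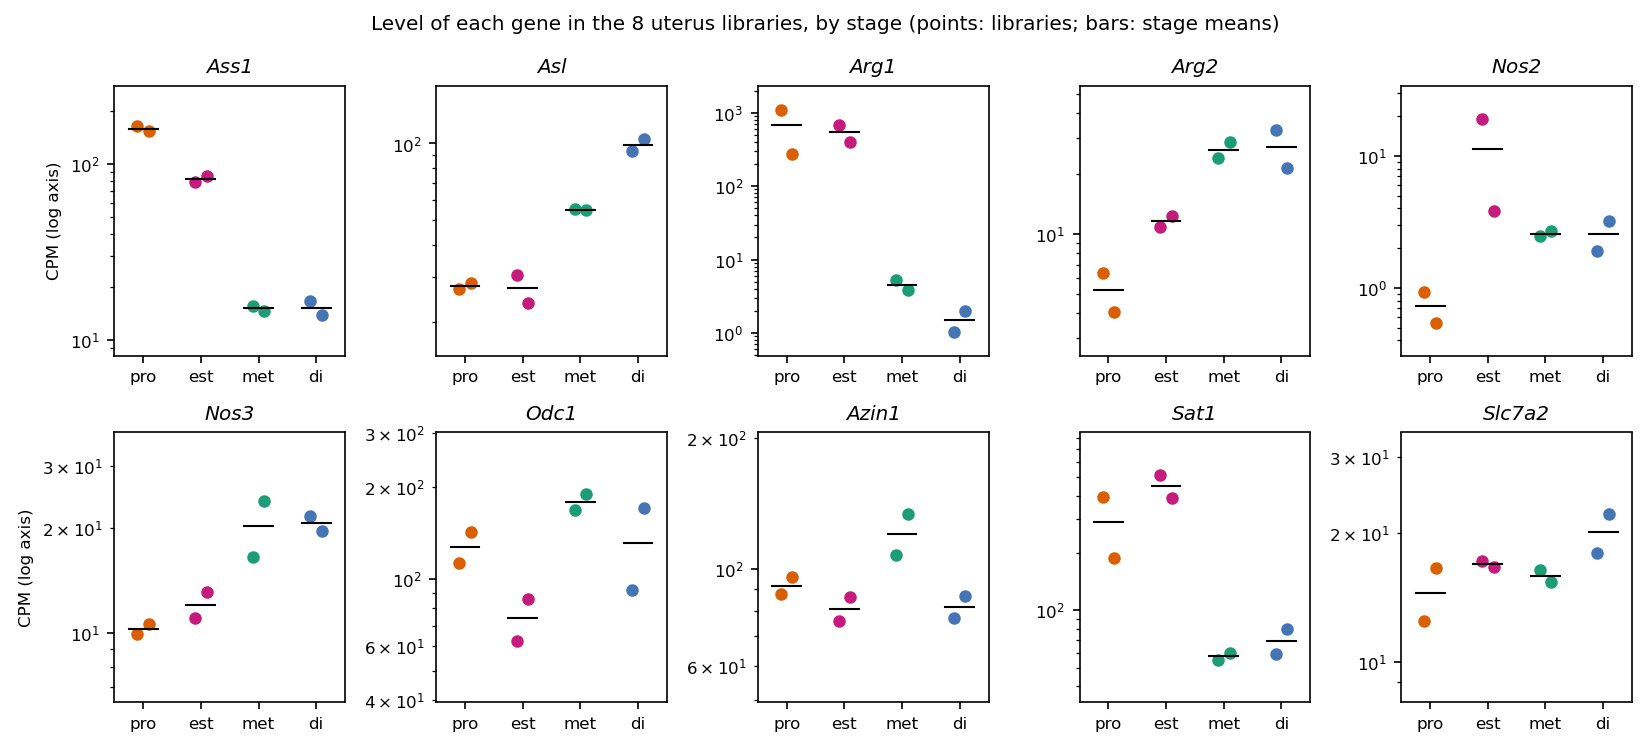
Level of each of the 10 genes in CPM on a log axis, with 1 point per library and a bar at the mean of the 2 libraries of a stage (pro, proestrus; est, estrus; met, metestrus; di, diestrus). Ass1, Arg1 and Sat1 sit high in proestrus and estrus, Asl, Arg2 and Nos3 sit high in metestrus and diestrus, and the Slc7a2 points stay between 12.5 and 22.1 CPM.

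The enzymes that make arginine moved in opposite directions from estrus to metestrus and from diestrus to proestrus. From proestrus to estrus Asl overlapped, and from metestrus to diestrus Ass1 did. Ass1 (ENSMUSG00000076441, protein coding, plus strand of chromosome 2, 31470207 to 31520672, GRCm38) condenses citrulline with aspartate. It held 164 and 154 CPM in the proestrus libraries, 79.5 and 85.8 in estrus, 15.6 and 14.7 at metestrus, and 16.7 and 13.8 in diestrus. Both proestrus libraries lay above both estrus libraries, which lay above all 4 later ones, and metestrus and diestrus overlapped. The level in proestrus was 10.5-fold that in metestrus. On the log2 scale, the edgeR fit gave -0.94 ± 0.12 (SE) from proestrus to estrus and -2.45 ± 0.13 from estrus to metestrus. It then gave 0.01 ± 0.13 from metestrus to diestrus and 3.38 ± 0.13 for proestrus against diestrus. Without the 3 libraries with liver transcripts, the proestrus-diestrus difference of Ass1 was 3.33.

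Asl (ENSMUSG00000025533, minus strand of chromosome 5, 130011258 to 130029247) splits argininosuccinate into arginine and fumarate. Its levels were 26.9 and 28.4 CPM in proestrus, 30.6 and 23.8 in estrus, 55.1 and 55.0 at metestrus, and 93.3 and 104 in diestrus. Proestrus and estrus overlapped, and metestrus and then diestrus each lay above. The log2 difference was 1.02 ± 0.14 from estrus to metestrus and 0.84 ± 0.14 from metestrus to diestrus, and proestrus stood 1.83 ± 0.15 below diestrus. The proestrus-diestrus difference of Asl was -1.80 without the 3 libraries with liver transcripts. Per exon length, as TPM, which divides reads by exon length and sets the same total in each library, Ass1 exceeded Asl 12.2-fold and 10.8-fold in the proestrus libraries and 5.20-fold and 7.23-fold in estrus. In metestrus the order was reversed, with Asl 1.77-fold and 1.87-fold above Ass1, and in diestrus Asl was 2.79-fold and 3.77-fold above. With exon lengths from the GENCODE basic set, the order was the same in all 8 libraries.

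The arginases exchanged places in the same way, over a wider range. Arg1 (ENSMUSG00000019987, minus strand of chromosome 10, 24915221 to 24927484) held 1087 and 273 CPM in proestrus and 688 and 399 in estrus. It held 5.22 and 3.85 CPM in metestrus and 1.04 and 1.97 in diestrus, where 23 and 39 reads were counted. Proestrus and estrus overlapped, and each of their 4 libraries lay above the 4 later ones. The proestrus mean was 453-fold the diestrus mean. The log2 difference was -6.90 ± 0.81 from estrus to metestrus and 8.83 ± 0.89 for proestrus against diestrus. Without proestrus library 1 the latter was 7.51, and without the 3 libraries with liver transcripts it was also 7.51. Proestrus library 1, whose hepatocyte markers summed to 106 CPM, had 3.98-fold the Arg1 level of library 2, whose markers summed to 1.34 CPM. Library 2 had 273 CPM of Arg1, and the metestrus and diestrus libraries had at most 5.22 CPM. The part of liver RNA in the Arg1 levels was not tested.

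Arg2 (ENSMUSG00000021125, plus strand of chromosome 12, 79130777 to 79156301) ran the other way. It held 6.36 and 4.07 CPM in proestrus, 10.8 and 12.2 in estrus, 23.9 and 28.8 at metestrus, and 33.0 and 21.2 in diestrus. The first 3 stages did not overlap, and metestrus and diestrus did. The log2 difference was 1.14 ± 0.30 from proestrus to estrus and 1.19 ± 0.29 from estrus to metestrus, and proestrus stood 2.38 ± 0.30 below diestrus. For Arg2 the proestrus-diestrus difference without the 3 libraries with liver transcripts was -2.73, where its call was lost. Of the TPM of both arginases, Arg1 made up 99.1% and 97.7% in proestrus and 97.6% and 95.4% in estrus. Its share was 12.3% and 7.90% in metestrus and 1.97% and 5.61% in diestrus. Arg2 shares 285 exon bases with Vti1b, which lay between 54.2 and 78.6 CPM. The strand setting of the counting is not given in the sources used here, so reads of overlapping genes may be shared out differently.

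**Figure D2:**
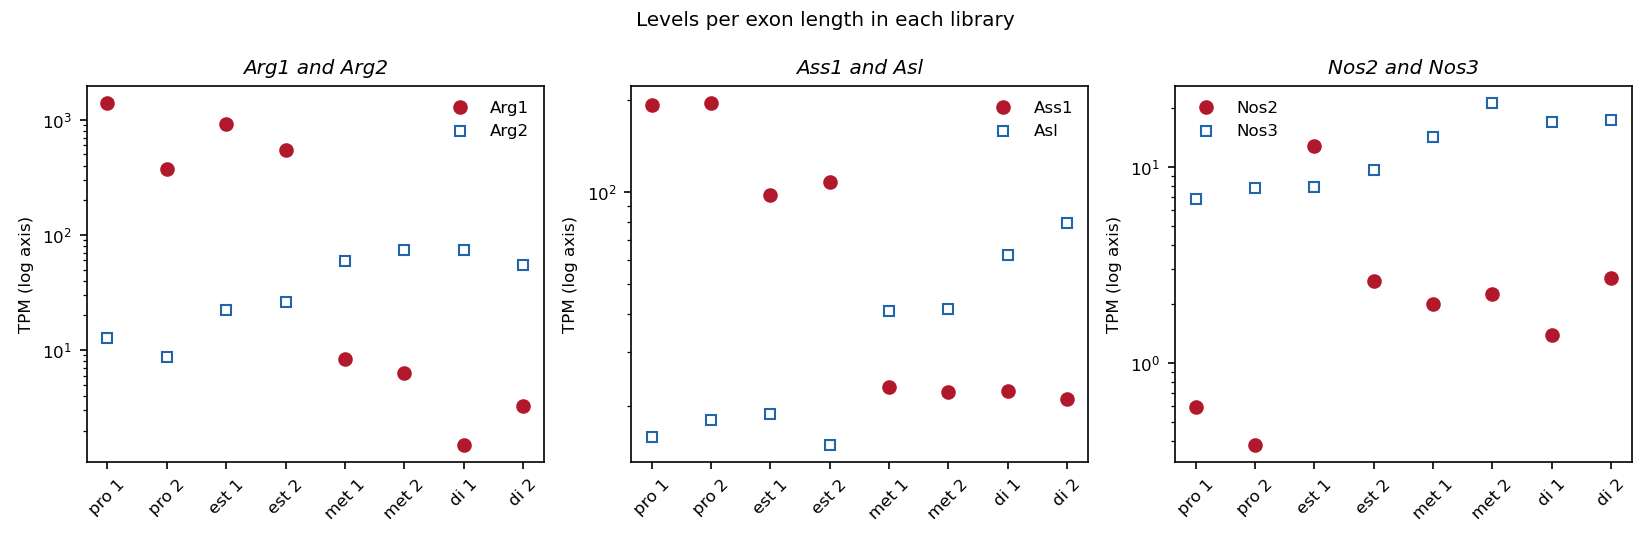
Levels per exon length (TPM, log axis) of Arg1 and Arg2, Ass1 and Asl, and Nos2 and Nos3 in each of the 8 libraries, with filled circles for the first gene of a pair and open squares for the second. Arg1 and Ass1 lie above their partners in the proestrus and estrus libraries and below them in metestrus and diestrus, and Nos2 lies above Nos3 in estrus library 1 only.

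Of the nitric oxide synthases Nos2 and Nos3, Nos3 was the more abundant per length in 7 of 8 libraries. Another synthase, Nos1, is not among the 10 genes and lies outside the naming rule. It had 20.7 and 19.5 CPM in proestrus, 14.8 and 2.74 in estrus, 21.1 and 13.8 at metestrus, and 4.54 and 4.94 in diestrus. Nos3 (ENSMUSG00000028978, plus strand of chromosome 5, 24364810 to 24384474) held 9.90 and 10.6 CPM in proestrus, 11.01 and 13.1 in estrus, 16.4 and 23.9 at metestrus, and 21.6 and 19.5 in diestrus. Metestrus and diestrus overlapped and lay above the earlier stages. The difference was 0.75 ± 0.21 log2 from estrus to metestrus, and proestrus stood 1.01 ± 0.22 below diestrus. Leaving out the 3 libraries with liver transcripts made the proestrus-diestrus difference of Nos3 -0.96, where its call was lost. The 6 endothelial markers (Pecam1, Cdh5, Kdr, Tek, Emcn and Tie1), none at 0 in any library and 2 of 6 called across the stages, summed to 409 and 515 CPM in proestrus, 432 and 476 in estrus, 498 and 527 at metestrus, and 787 and 576 in diestrus. Nos3 per 1000 CPM of these markers was 24.2 and 20.5 in proestrus, 25.5 and 27.5 in estrus, 33.0 and 45.3 at metestrus, and 27.5 and 33.9 in diestrus. The markers did not move alike, so this scale depends on which are used. Kdr had 45.8 and 51.5 CPM in estrus and 97.5 and 124 in metestrus, and Emcn was also higher in metestrus. Tek, Cdh5 and Tie1 were lower in metestrus than in estrus, and Pecam1 overlapped. The part of endothelial cell number in the Nos3 levels was not tested. Nos3 shares 294 exon bases with Atg9b on the other strand, which had 57.3 CPM in diestrus library 1 and 1.61 in library 2, whereas Nos3 had 21.6 and 19.5.

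Nos2 (ENSMUSG00000020826, plus strand of chromosome 11, 78920787 to 78960254) had the lowest mean level per length of the 10 genes. Its levels were 0.923 and 0.546 CPM in proestrus, 18.9 and 3.82 in estrus, 2.46 and 2.70 at metestrus, and 1.89 and 3.23 in diestrus. Both estrus libraries lay above the other 6, but library 1 held 4.95-fold the level of library 2. The log2 difference from proestrus to estrus was 3.94 ± 0.81, and it was 2.37 without estrus library 1. The 7 macrophage markers, a cell type known to express Nos2, summed to 1432 and 1761 CPM in estrus and to 468 to 892 CPM in the other libraries, with none at 0 and 7 of 7 called across the stages. Estrus library 2 had the higher marker sum and the lower Nos2, but the markers were split. Lyz2 had 446 CPM in estrus library 1 and 712 in library 2, and Csf1r and C1qb were also higher in library 2. Adgre1, Cd68, C1qa and Mrc1 were lower in library 2. Nos2 per 1000 CPM of these markers was 1.44 and 1.17 in proestrus, 13.2 and 2.17 in estrus, 3.36 and 3.98 at metestrus, and 2.94 and 3.62 in diestrus. On this scale estrus library 2 lay below all 4 later libraries. The part of macrophages in the Nos2 levels was not tested. Slc7a2 (ENSMUSG00000031596, plus strand of chromosome 8, 40862396 to 40922308), a carrier of arginine and other cationic amino acids, was the flattest of the 10 genes, with stage means within 1.38-fold. It held 12.5 and 16.6 CPM in proestrus, 17.2 and 16.7 in estrus, 16.4 and 15.4 at metestrus, and 17.99 and 22.1 in diestrus.

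On the polyamine side, Odc1 and Azin1 had their highest means in metestrus and Sat1 had its highest in estrus. Odc1 (ENSMUSG00000011179, plus strand of chromosome 12, 17544794 to 17551505) held 112 and 142 CPM in proestrus, 62.3 and 86.0 in estrus, 168 and 190 at metestrus, and 91.5 and 170 in diestrus. Both estrus libraries lay below the other 6. Metestrus had the highest mean, but diestrus overlapped both metestrus and proestrus. The log2 difference from estrus to metestrus was 1.27 ± 0.31. Azin1 (ENSMUSG00000037458, minus strand of chromosome 15, 38487427 to 38519266), which frees ornithine decarboxylase from antizyme, had 87.5 and 95.9 CPM in proestrus, 76.2 and 86.1 in estrus, 108 and 134 at metestrus, and 77.1 and 86.8 in diestrus. Both metestrus libraries lay above the other 6, with a log2 difference of 0.57 ± 0.14 from estrus.

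Sat1 (ENSMUSG00000025283, minus strand of chromosome X, 155213132 to 155216449) held 392 and 187 CPM in proestrus, 512 and 387 in estrus, 55.0 and 59.3 at metestrus, and 59.2 and 79.5 in diestrus. Proestrus and estrus overlapped and lay above all 4 later libraries, which overlapped as well. The log2 difference was -2.97 ± 0.37 from estrus to metestrus and 2.06 ± 0.36 for proestrus against diestrus, the latter being 1.43 without proestrus library 1. Without the 3 libraries with liver transcripts it was 1.43 as well, where the call of Sat1 was lost. Sat1 is transcribed in many cell types. Per 1000 CPM of the macrophage markers it was 611 and 400 in proestrus, 357 and 220 in estrus, 75.3 and 87.6 at metestrus, and 92.3 and 89.1 in diestrus.

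**Figure D3:**
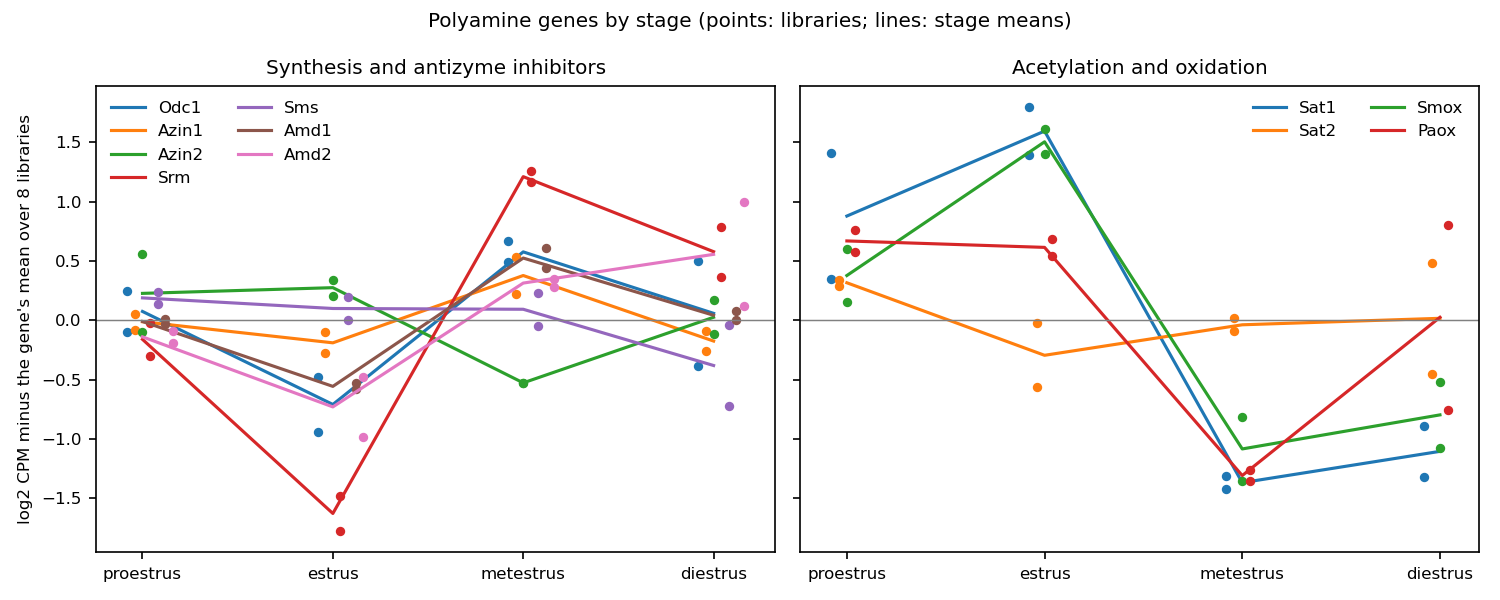
Log2 CPM of polyamine genes minus each gene's mean over the 8 libraries, with points for libraries and lines through stage means; genes of synthesis and their antizyme inhibitors are on the left, those of acetylation and oxidation on the right. Odc1, Azin1, Srm and Amd1 have their highest mean in metestrus, whereas Azin2 has its lowest there, Amd2 is highest in diestrus and the Sms libraries of estrus and metestrus overlap; Sat1 and Smox have their highest mean in estrus, Sat2 varies less, and Paox is high in proestrus, estrus and diestrus library 1.

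Markers of simple epithelium moved with Ass1, Arg1 and Sat1. The 6 markers (Epcam, Cdh1, Krt8, Krt18, Krt19 and Cldn7) were detected in all libraries, 6 of 6 were called across the stages, and they summed to 4792 and 3908 CPM in proestrus, 3439 and 2944 in estrus, 1175 and 1115 at metestrus, and 782 and 1029 in diestrus. The proestrus mean of this sum was 4.81-fold the diestrus mean, against 10.4-fold for Ass1, 453-fold for Arg1 and 4.18-fold for Sat1. Per 1000 CPM of these markers, Ass1 was 34.2 and 39.4 in proestrus, 23.1 and 29.1 in estrus, 13.3 and 13.2 at metestrus, and 21.4 and 13.4 in diestrus. Arg1 per 1000 CPM of the markers was 227 and 69.9 in proestrus and 200.2 and 136 in estrus, against 4.44 and 3.45 in metestrus and 1.32 and 1.91 in diestrus. Sat1 per 1000 CPM of the markers was 81.8 and 48.0 in proestrus, 149 and 131.5 in estrus, 46.8 and 53.2 at metestrus, and 75.7 and 77.3 in diestrus. On this scale the estrus libraries of Sat1 lay above the other 6, and the proestrus libraries overlapped metestrus and diestrus. The part of epithelial cell number in these levels was not tested. Markers of keratinised squamous epithelium, which lines the neighbouring vagina, summed to 8.60 to 14.1 CPM in all libraries. Krt10 alone held 5.22 to 8.72 CPM, and 2 of the 5 tested markers were called across the stages. Krt5 had 1.28 and 1.84 CPM in proestrus and at most 0.207 in the other stages, whereas Lor had its highest mean, 2.75 CPM, in diestrus.

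**Figure D4:**
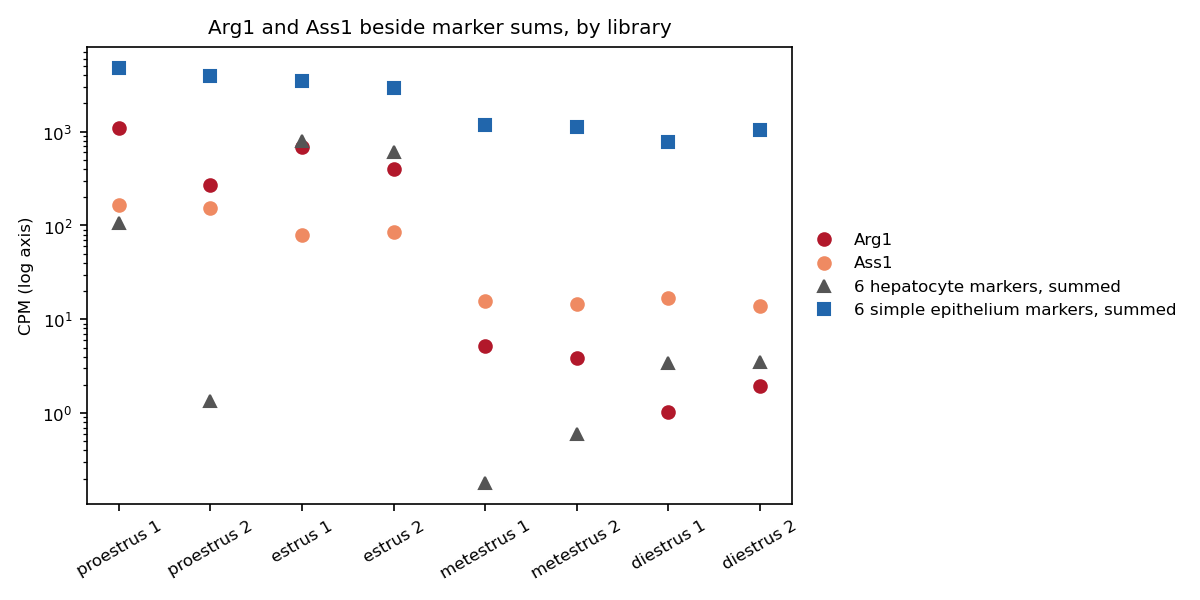
CPM on a log axis of Arg1 and Ass1 and of the summed hepatocyte and simple epithelium markers in each library. Proestrus library 1 has 1087 CPM of Arg1 at a hepatocyte marker sum of 106 CPM, and proestrus library 2 has 273 CPM at 1.34 CPM. The epithelial sum is 2944 to 4792 CPM in the 4 libraries of proestrus and estrus and 782 to 1175 CPM in the other 4.

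Each pair of stages was then set beside all genes tested with edgeR's quasi-likelihood test, where a gene is called at a Benjamini-Hochberg adjusted p under 0.05. Across the 4 stages 8 of the 10 genes were called, all but Odc1 and Slc7a2, where 39.1% of all tested genes were called. Since the genes were chosen on these values, nothing is read from such counts. Without either proestrus library, or without estrus library 1, 5 were called. From proestrus to estrus Arg2 and Nos2 were called higher (8.12% of all genes) and Ass1 lower (6.94%). That count was 0 without estrus library 1 and 1 without either proestrus library, estrus library 2 or either metestrus library. From estrus to metestrus 5 were called higher (Asl, Arg2, Nos3, Odc1 and Azin1; 16.7% of all genes) and 3 lower (Ass1, Arg1 and Sat1; 19.5%). The count of 8 became 4 without estrus library 1 or metestrus library 2, and 5 without estrus library 2.

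From metestrus to diestrus edgeR called 0 of the 10 genes, where 0.282% of all genes were called higher and 0.226% lower. Between these stages 4 of the 10 did not overlap, with Asl and Slc7a2 higher and Arg1 and Azin1 lower in diestrus. How many of all tested genes did not overlap was not counted, so nothing is read from that number. An unadjusted p under 0.05 was found for 2 of the 10. DESeq2 called 2 of the 10. The shares of all genes at an unadjusted p under 0.05 or called by DESeq2 were not counted, so nothing is read from these counts. Ass1, Arg1 and Sat1 were called higher and Asl, Arg2 and Nos3 lower in proestrus against diestrus, where the background was 12.0% and 10.4%. The same 6 genes were called in the same directions in estrus against diestrus (13.9% of all genes higher, 9.97% lower). In metestrus against proestrus the same 6 were called in the opposite directions (6.68% of all genes higher, 10.3% lower). These comparisons share libraries, so their likeness is no separate evidence. In metestrus against proestrus the count of 6 was 2 without metestrus library 1, 1 without metestrus library 2, and 2 without the 3 libraries with liver transcripts. In proestrus against diestrus the count without those 3 was 3, namely Ass1 and Arg1 higher and Asl lower.

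**Figure D5:**
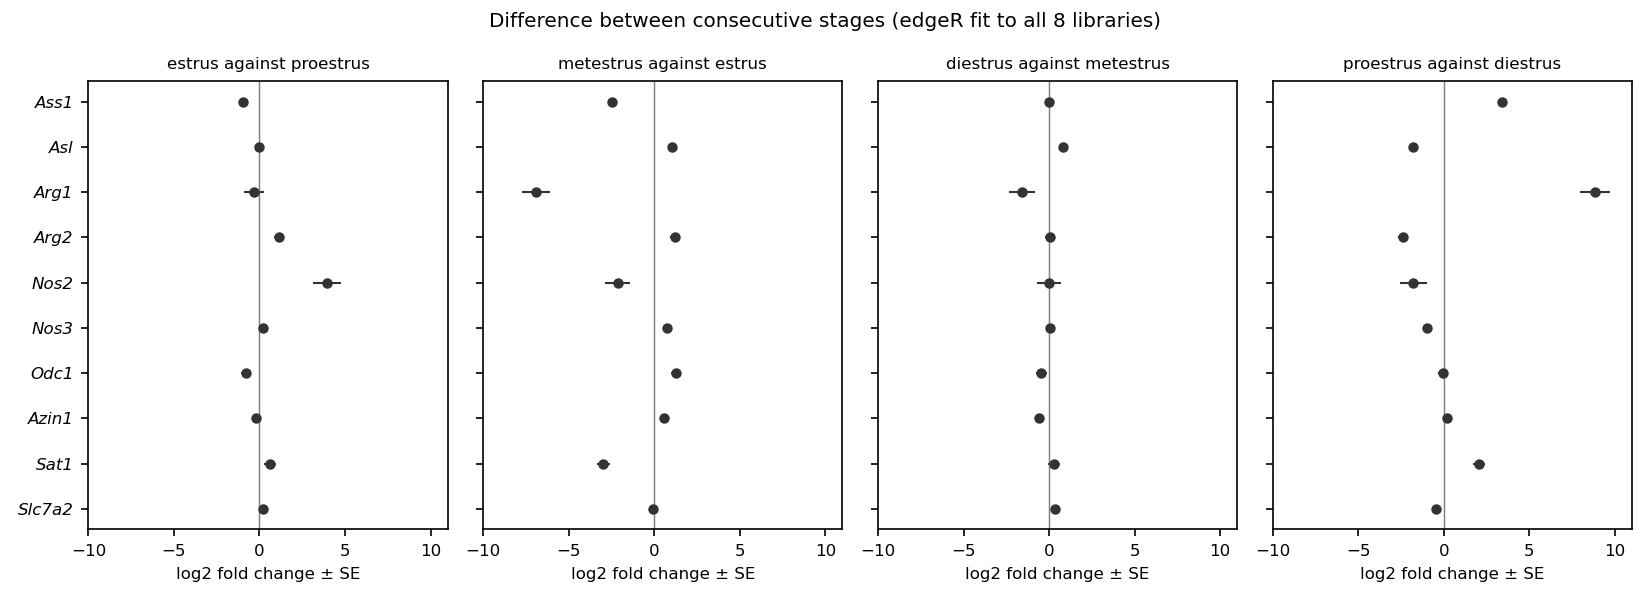
Log2 fold change ± SE of each of the 10 genes between consecutive stages, from the edgeR fit to all 8 libraries, with 0 marking no difference. Arg1 spans the widest range, from -6.90 between estrus and metestrus to 8.83 between diestrus and proestrus, and the differences from metestrus to diestrus lie between -1.60 and 0.84.

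The steps around these enzymes were followed in 6 lists of 69 other genes, of which 61 had enough counts to be tested. The lists were chosen with earlier results of these data known, so their counts and medians are given as a description. The genes named from them were partly picked by smallest p in these data, so their p-values describe a selection. From estrus to metestrus 33 of the 61 passed the test, 18 higher and 15 lower in metestrus, where 16.7% of all tested genes were called higher and 19.5% lower. The median log2 difference of the 61 was 0.23, against -0.05 over all tested genes. The count was 17 without either estrus library, 18 without metestrus library 1 and 13 without metestrus library 2. From proestrus to estrus 18 passed, 7 higher (8.12% of all genes) and 11 lower (6.94%), with a median of -0.14 against 0.01. That count ranged from 3, without estrus library 2, to 26, without diestrus library 1, and was under 10 without any one of the proestrus, estrus or metestrus libraries. From metestrus to diestrus edgeR called 0 of the 61 (0.282% of all genes higher, 0.226% lower). In the same fit 21 of the 61 had an unadjusted p under 0.05, and DESeq2 called 9. The shares of all genes by these other measures were not counted, so nothing is read from them. In proestrus against diestrus 15 passed, 7 higher (12.0% of all genes) and 8 lower (10.4%). That count was 5 without proestrus library 1, 9 without metestrus library 1, and 2 without the 3 libraries with liver transcripts.

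In the list of polyamine and methylthioadenosine genes, 11 of 20 tested passed from estrus to metestrus, 4 higher and 7 lower, against 16.7% and 19.5% of all genes, and 3 to 12 passed when a library was left out. Srm, spermidine synthase, was at 63.1 and 76.5 CPM in proestrus, 22.7 and 27.9 in estrus, 174 and 186 at metestrus, and 100.2 and 134 in diestrus. It rose by 2.83 ± 0.20 log2 from estrus to metestrus (adjusted p = 0.000882). Amd1, which makes the aminopropyl donor of spermidine and spermine synthesis, rose by 1.08 ± 0.10 over that step (adjusted p = 0.00178), from 71.4 and 74.0 to 145 and 163 CPM. Amd1 has a near-identical copy, Amd2, so its counts are uncertain. Smox, spermine oxidase, fell by 2.57 ± 0.28 (adjusted p = 0.00223), from 298 and 257 CPM in estrus to 55.4 and 38.3 in metestrus. These 3 calls passed in each of 13 alternative fits. Sms, spermine synthase, lies outside the naming rule and was chosen after its values were seen. It had 37.1 and 39.6 CPM in proestrus, 38.4 and 33.8 in estrus, 32.6 and 39.4 at metestrus, and 20.3 and 32.8 in diestrus, and did not pass across the stages (adjusted p = 0.267), though it did without diestrus library 2 (0.0192). Azin2, a relative of Azin1 that also lies outside the rule, was lower in metestrus than in estrus, with a log2 difference of -0.80 ± 0.25 (adjusted p = 0.0444). That call was lost with no filter on low counts (0.0537), with the replicate block (0.0559), and without any one of the estrus and metestrus libraries (0.114 to 0.186). Paox, which oxidises the acetylated polyamines that Sat1 makes, lies outside the naming rule and was chosen after its values were seen. It had 66.2 and 60.0 CPM in estrus and 16.1 and 17.2 in metestrus, a fall of 1.92 ± 0.45 (adjusted p = 0.018), a call lost without any one of the estrus and metestrus libraries (0.0618 to 0.1). Oaz1, the antizyme that holds Odc1 down and the most abundant gene of the list per length, lay between 259 and 374 CPM and did not pass across the stages (adjusted p = 0.0644), though it did with DESeq2 (0.0117) and without diestrus library 1 (0.0496) or 2 (0.0366).

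Aldh18a1 and Pycr1, on the route to proline, were lowest in estrus. In the list of urea cycle and ornithine genes, 6 of 8 tested passed from estrus to metestrus, 4 higher (16.7% of all genes) and 2 lower (19.5%), and 3 passed without metestrus library 2. Aldh18a1, which makes the semialdehyde precursor of proline and ornithine, was at 47.7 and 44.6 CPM in estrus and 137 and 123 in metestrus. It fell by 1.12 ± 0.12 from proestrus to estrus (adjusted p = 0.00458) and rose by 1.49 ± 0.12 to metestrus (adjusted p = 0.00121), and both calls passed in each of 13 alternative fits. Pycr1, which reduces the same precursor to proline, had 18 and 23.9 CPM in proestrus, 4.20 and 2.94 in estrus, 24.9 and 17.8 at metestrus, and 16.6 and 26.9 in diestrus. It rose by 2.58 ± 0.34 from estrus to metestrus (adjusted p = 0.00345). Prodh, which starts proline breakdown, had 5.33 to 8.75 CPM in proestrus and estrus and 22.04 to 34.7 in metestrus and diestrus, and stood 2.13 ± 0.28 lower in proestrus than in diestrus (adjusted p = 0.00452; 0.0854 without the 3 libraries with liver transcripts). Oat, which converts ornithine to the same precursor and was the most abundant of the list per length, lay between 184 and 332 CPM and did not pass across the stages (adjusted p = 0.486).

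The 2 genes of that list that were lower in metestrus than in estrus were Cps1 and Otc, urea cycle enzymes of liver and gut. Cps1 had 461 and 225 reads in estrus, 18 and 0 in proestrus, and 0 to 2 in each other library. Otc, which lies outside the naming rule, had 36 and 42 reads in estrus, 14 and 0 in proestrus, and 0 in the other 4 libraries. Agmat, a liver and kidney enzyme that hydrolyses agmatine, had 23 and 13 reads in estrus and at most 1 in any other library. The reads of all 3 lay in the libraries with hepatocyte transcripts, apart from at most 2 reads in any other library. The part of liver RNA in their changes was not tested. The call of Cps1 was lost without metestrus library 1 (0.0612) or 2 (0.0679). No fold is given for Cps1 and Agmat, whose reads outside estrus were so few.

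Among arginine carriers, 4 of 6 tested genes passed from estrus to metestrus, 3 higher (16.7% of all genes) and 1 lower (19.5%), with 1 passing without either estrus library or metestrus library 2 and 2 without metestrus library 1. Slc7a6, a light chain that exchanges arginine for neutral amino acids, had 26.5 and 27.0 CPM in proestrus, 15.6 and 17.7 in estrus, 50.2 and 50.99 at metestrus, and 33.6 and 42.3 in diestrus. It rose by 1.61 ± 0.15 from estrus to metestrus (adjusted p = 0.0016). Slc7a1, the main carrier of cationic amino acids in most cells, had 122 and 108 CPM in proestrus, 63.5 and 52.0 in estrus, 93.6 and 131 at metestrus, and 50.2 and 74.6 in diestrus. It rose by 0.96 ± 0.24 over the same step (adjusted p = 0.0235), a call lost without estrus library 1 (0.0724), estrus library 2 (0.123) or metestrus library 2 (0.119). Slc7a7, another light chain, fell by 0.98 ± 0.23 (adjusted p = 0.0176), from 40.3 and 37.3 to 21.6 and 17.7 CPM, a call lost without any one of the estrus and metestrus libraries (0.0595 to 0.117). Slc3a2, the heavy chain that these light chains share, was the most abundant of the list per length and ranged from 101 to 150.2 CPM. Its proestrus level exceeded the diestrus level by 0.52 ± 0.10 (adjusted p = 0.013), which was 0.0957 without proestrus library 1 and 0.174 without the 3 libraries with liver transcripts.

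Around nitric oxide, 7 of 17 tested genes passed from estrus to metestrus, 4 higher (16.7% of all genes) and 3 lower (19.5%), and 3 or 4 passed without any one estrus or metestrus library. Gch1, which makes the first intermediate of the synthase cofactor tetrahydrobiopterin, was at 37.9 and 28.3 CPM in proestrus, 32.2 and 35.6 in estrus, 4.20 and 4.92 at metestrus, and 4.27 and 2.57 in diestrus. It fell by 2.89 ± 0.28 from estrus to metestrus (adjusted p = 0.00174) and stood 3.27 ± 0.28 higher in proestrus than in diestrus (adjusted p = 0.00154). Without the 3 libraries with liver transcripts the latter was 3.04 (adjusted p = 0.0427). Ddah1, which clears methylated arginines that inhibit the synthases, ran the other way, from 4.20 and 3.56 CPM in estrus to 18.5 and 20.4 in metestrus. It rose by 2.32 ± 0.32 (adjusted p = 0.00374). Its relative Ddah2, which lies outside the naming rule, had 57.9 to 80.5 CPM and was not called over that step. Cav1, a membrane protein that binds Nos3 and was the most abundant of this list per length, had 281 and 257 CPM in proestrus, 154 and 158 in estrus, 248 and 253 at metestrus, and 390 and 284 in diestrus. Its estrus level was below that of diestrus by 1.11 ± 0.16 (adjusted p = 0.00619).

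Downstream of nitric oxide, Pde5a, the phosphodiesterase that breaks down cyclic GMP, was at 45.5 and 50.9 CPM in proestrus, 281 and 299 in estrus, 77.9 and 81.4 at metestrus, and 231 and 141 in diestrus. It rose by 2.59 ± 0.23 from proestrus to estrus (adjusted p = 0.00312) and fell by 1.86 ± 0.23 from estrus to metestrus (adjusted p = 0.00289), and both calls passed in each of 13 alternative fits. Gucy1a1, a subunit of the guanylate cyclase that senses nitric oxide, had 15.3 and 17.0 CPM in proestrus, 27.0 and 29.0 in estrus, 28.9 and 23.6 at metestrus, and 60.1 and 37.6 in diestrus. Its proestrus level was below that of diestrus by 1.60 ± 0.24 (adjusted p = 0.00623), which was 0.0547 without proestrus library 1 and 0.124 without the 3 libraries with liver transcripts. The smooth muscle marker sum, beside which Pde5a and Gucy1a1 were higher in diestrus library 1, was 16510 CPM there and 6324 CPM in library 2. Its part in these levels was not tested.

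Spermidine also serves to make hypusine, a modified residue of the translation factor encoded by Eif5a. From estrus to metestrus 2 of the 4 hypusine genes passed, both higher (16.7% of all genes), and 1 passed without either estrus library or without metestrus library 2. Eif5a was the most abundant of them per length, at 857 and 985 CPM in proestrus, 461 and 475 in estrus, 884 and 964 at metestrus, and 596 and 770 in diestrus. It rose by 0.98 ± 0.16 from estrus to metestrus (adjusted p = 0.00619), a call that passed in each of 13 alternative fits. Its relative Eif5a2 rose by 1.04 ± 0.27 over that step (adjusted p = 0.0264), a call lost without estrus library 1 (0.0856), estrus library 2 (0.123) or metestrus library 2 (0.139). Dhps and Dohh, the enzymes that make hypusine, did not pass across the stages (adjusted p = 0.597 and 0.307). They had 10.03 to 15.4 CPM and 7.59 to 10.4 CPM.

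Creatine synthesis is another use of arginine. In the list of creatine genes, which also holds kinases, 3 of 6 tested passed from estrus to metestrus, 1 higher (16.7% of all genes) and 2 lower (19.5%). Gatm, which transfers the amidino group of arginine to glycine, had 52.9 and 32.8 CPM in proestrus, 105 and 96.6 in estrus, 31.9 and 33.1 at metestrus, and 74.2 and 61.4 in diestrus. It fell by 1.63 ± 0.23 from estrus to metestrus (adjusted p = 0.00384). Gamt, the methyltransferase of the next step, rose by 1.84 ± 0.48 (adjusted p = 0.0257), a call lost without any one of the estrus and metestrus libraries (0.087 to 0.12). Ckmt1, a mitochondrial creatine kinase, was at 270 and 196 CPM in proestrus, 145 and 117 in estrus, 35.4 and 39.1 at metestrus, and 30.5 and 31.7 in diestrus. It stood 2.91 ± 0.19 higher in proestrus than in diestrus (adjusted p = 0.000927) and 2.66 without the 3 libraries with liver transcripts (adjusted p = 0.0212). Ckb, the cytosolic kinase and the most abundant of the list per length, had 255 to 683 CPM and did not pass across the stages (adjusted p = 0.0754), though it did with DESeq2 (0.00756), with no filter on low counts (0.0257), with the replicate block (0.0258), and without diestrus library 1 (0.0236) or 2 (0.00958).

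The genes whose log2 CPM followed each of the 10 most closely were read from 11833 tested genes with a mean of 5 CPM or more, as a description over 8 libraries that share stage and depth. The closest to Ass1 were Pkp2, Lrmp and Serpinb5 (Pearson r 0.996, 0.996 and 0.994). Serpinb5, an epithelial serpin, had stage means of 28.7, 11.3, 0.567 and 0.356 CPM from proestrus to diestrus. The closest to Arg1 were Capn5, Rtn4 and Armc10 (each 0.997), and the closest to Sat1 were Tmem219 (0.997), Myo1g (0.996) and Adam10 (0.995). Asl was followed by Amer1, Mme and Piezo2 (0.980, 0.980 and 0.979). Mme, a membrane peptidase, had stage means of 36.5, 38.8, 82.6 and 258 CPM. The closest to Arg2 were Atp6v0e2, Sema6a and Slc23a2 (0.979, 0.977 and 0.972), and the closest to Nos3 were Slc5a6, Hdgfl3 and Pogz (0.988, 0.986 and 0.977). Odc1 was followed by Hmgn1, Mcm2 and Exosc3 (0.997, 0.992 and 0.989). Mcm2, a subunit of the replicative helicase, had 69.7, 26.2, 128 and 62.6 CPM. For Azin1 the closest were Nostrin, Vma21 and Dnajc11 (0.984, 0.982 and 0.982). For Nos2 they were Arhgap4, Ppfia4 and Egr1 (0.966, 0.955 and 0.945), and for Slc7a2 Pced1a, Amph and Pcnt (0.963, 0.936 and 0.936).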

How the data were processed

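RNA of the uterus was measured in 8 libraries, 2 for each of 4 stages, grouped by stage from the labels. Per the labels, the library kit selects mRNA and keeps strand. The authors deposited raw counts of reads per gene. The submitters' processing notes name STAR, featureCounts of Subread and GRCm38 (mm10). Tool versions and strand setting: not given in the sources used here. Of 52308 gene identifiers, 52058 were matched to symbols in GENCODE M21, and the other 250 held at most 0.0107% of a library's counts.

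Tests used edgeR 4.0.16 (R 4.3.3), with DESeq2 1.42.0 as an alternative. The filter filterByExpr left 18114 genes. TMM factors lay between 0.8975 and 1.111. All 8 libraries entered one quasi-likelihood fit, with a coefficient for each stage and 4 residual degrees of freedom. The test was two-sided, with Benjamini-Hochberg adjustment over all tested genes and a threshold of 0.05. Each SE was taken as the absolute log2 fold change over the square root of F. TPM used the union of exons, and correlations used log2 CPM with a prior count of 2. The procedure was tested on simulated data.

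The 10 genes and the lists were chosen with earlier results of these data known. All 10 are named. From each list the text names up to 4 called genes, by smallest p over all stages, and the most abundant gene per length. For each of the 10, it names the 3 genes most correlated with it. Amd2, Azin2, Ddah2, Dhps, Dohh, Nos1, Otc, Paox, Sat2 and Sms lie outside this rule and were chosen after their values were seen. Alternatives were DESeq2 size factors, the DESeq2 test, no filter, a filter at 1 CPM in 2 libraries, each library left out, and a block for the replicate number. In a fit without a library, the lone library of that stage is assumed to vary like the others.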

Additional observations from a re-analysis of the deposited data

How the results depend on the processing

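No called difference of the 10 genes or of the other named genes changed sign in any alternative. Of 940 alternative values of the 10 genes, 840 kept their side of the threshold, 75 lost it and 25 gained it. For the other named genes 1028 of 1262 kept it, 226 lost it and 8 gained it. Leaving out 1 library gave 5 to 9 called of the 10 genes across the stages, 0 to 4 from proestrus to estrus, 4 to 8 from estrus to metestrus and 0 to 1 from metestrus to diestrus. It gave 5 to 7 in proestrus against diestrus, 4 to 6 in estrus against diestrus and 1 to 6 in metestrus against proestrus. For the 61 pathway genes the same ranges were 15 to 41, 3 to 26, 13 to 39, 0 to 14, 5 to 17, 10 to 25 and 0 to 21. In metestrus against proestrus, where 12 passed in the full fit, 2 passed without proestrus library 1, 3 without metestrus library 1, 0 without metestrus library 2, and 21 without either diestrus library. In estrus against diestrus, where 19 passed, 10 passed without estrus library 1 and 11 without estrus library 2. Across the stages, where 29 passed, 19 passed without proestrus library 1 or metestrus library 2, 17 without estrus library 1 and 15 without estrus library 2. From metestrus to diestrus, where edgeR called 0 and 0, the DESeq2 test called 2 of the 10 genes and 9 pathway genes. There edgeR with no filter on low counts called 1 and 3. The shares of all genes called with libraries left out, with the DESeq2 test or with no filter were not counted. Nothing is therefore read from the counts in these settings. Without the 3 libraries with liver transcripts, a setting chosen after seeing the data, 3 of the 10 genes (against 6) and 2 pathway genes (against 15) were called in proestrus against diestrus. In metestrus against proestrus that setting gave 2 (against 6) and 1 (against 12). Scaling by total counts or by DESeq2 size factors moved 11 of 80 stage means of the 10 genes by more than their SD. The setting without those 3 leaves 5 libraries and 1 in proestrus. The cause of each of these moves was not tested, and neither was the part of the smaller number of libraries.

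With the replicate number as a block, 9 of the 10 genes were called across the stages and 3, 8, 0 and 6 in the consecutive steps, and 30, 19, 34, 0 and 14 pathway genes. From proestrus to estrus these 3 were 1 higher and 2 lower instead of 2 and 1, since the call of Arg2 was lost and Odc1 was called lower. In the opposite pairs, estrus against diestrus and metestrus against proestrus, the replicate block gave 7 and 7 of the 10 genes and 18 and 13 pathway genes. The shares of all genes called with the block were not counted, so nothing is read from these counts. What same-numbered libraries share beyond the number is not stated. The correlations of their deviations from the stage means lay between -0.093 and 0.145. Levels under about 1 CPM, as for Nos2 in proestrus with 18 and 11 reads, are limited by counting error.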
